A study of Mus musculus with 16 samples.

Results

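The 9 genes described here encode transcription factors that steer CD8 T cells toward effector, memory or exhausted states: Maf, Prdm1, Bhlhe40, Id2, Rbpj and 4 members of the Ikaros family, Ikzf1, Ikzf2, Ikzf3 and Ikzf4. They were taken by name from 22180 genes that a probe set with a single gene symbol represented on the arrays, and all 9 had one. A gene with more than 1 such probe set was read from its brightest, by the mean of all 16 arrays. RNA came from splenic CD8 T cells of female C57BL/6 mice that had carried leukemia cells from Eµ-TCL1 mice for 6 weeks. In Eµ-TCL1 mice a TCL1 transgene expressed in B cells gives rise to a disease that models chronic lymphocytic leukemia (CLL), so every subset, naive cells included, came from a leukemic spleen, and no cells from healthy mice are compared here. Lineage-negative, TCRb+ CD8+ cells were sorted into PD-1hi effector cells (CD127 low, CD44 intermediate to high, PD-1 high), PD-1int effector cells (the same but PD-1 intermediate), memory cells (CD127 high, CD44 high) and naive cells (CD127 high, CD44 low). Each subset has 4 arrays, numbered 1 to 4, and the sample titles use AT1 to AT4 in every subset. Neither the age of the mice nor whether the arrays of a subset come from separate mice is given in the labels, so p-values reflect the spread among these arrays, which may be technical.

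A T cell that meets antigen repeatedly gains inhibitory receptors such as PD-1 and takes on a program called exhaustion, whereas a resting memory cell keeps the receptor for interleukin 7, of which CD127 is a chain. Blimp-1 (encoded by Prdm1) and ID2 favour effector differentiation, the first as a repressor of other factors and the second by binding E proteins so that these cannot bind DNA. c-MAF (Maf), a leucine zipper factor, is known for driving interleukin 10, and BHLHE40, a helix-loop-helix repressor, is known in T cells for restraining interleukin 10 and sustaining interferon gamma and mitochondrial function. RBPJ is the DNA-binding partner of activated Notch receptors. Ikaros (Ikzf1), Helios (Ikzf2), Aiolos (Ikzf3) and Eos (Ikzf4) are zinc-finger proteins that pair with each other and recruit chromatin-remodelling complexes. Helios and Eos are best known from regulatory T cells.

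The arrays are all on a common log2 scale, with array medians between 6.39 and 6.49, and Pearson r across genes between arrays of a subset was 0.990 to 0.994. Cd8a, Cd8b1, Cd3d, Cd3e, Cd3g and Cd2, which mark CD8 T cells, had subset means of 10.80 to 13.08. Pdcd1, which encodes PD-1, averaged 11.40 ± 0.15 in PD-1hi, 10.12 ± 0.31 in PD-1int, 7.10 ± 0.10 in memory and 6.80 ± 0.30 in naive cells (SD, n = 4), in the order of the gates. Il7r and Cd44, the other genes of the gates, are not described further. All values below are log2 expression, so a difference of 1 is a 2-fold change. Each member has its own probe set, so levels are compared between subsets and not between genes. The files give no detection calls, so a low value can be an absent transcript, and differences of dim genes are compressed.

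Of the 9 members, 6 were higher and 1 was lower in PD-1hi than in naive cells, in a limma fit of all 16 arrays (p under 0.05 after Benjamini-Hochberg adjustment across the 22180 genes). Maf, Prdm1, Bhlhe40, Id2, Ikzf2 and Ikzf3 rose, Rbpj fell, and Ikzf1 and Ikzf4 did not pass. Over all genes, 27.1% were called in that comparison (13.4% higher, 13.7% lower). In PD-1int against naive 6 members rose and 2 fell, where 22.7% of all genes were called (11.9% higher, 10.8% lower). In memory against naive 3 rose and 2 fell, where 11.7% were called (6.7% higher, 5.02% lower). The median absolute difference of the 9 members was 0.99 in PD-1hi against naive, 0.99 in PD-1int against naive and 0.48 in memory against naive, where it was 0.14, 0.13 and 0.11 over all genes. These 3 comparisons share the naive arrays.

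Against memory, all 9 members passed in PD-1hi (8 higher, 1 lower), where 21.9% of all genes were called (10.8% higher, 11.1% lower), and 7 passed in PD-1int (6 higher, 1 lower), where 16.2% were called (8.49% higher, 7.66% lower). Between the effector subsets 3 members rose in PD-1hi against PD-1int, namely Maf, Ikzf2 and Ikzf4, where 3.31% of all genes were called (1.37% higher, 1.94% lower). The arrays of PD-1hi and PD-1int did not overlap for 7 of the 9 members, against 8.89% of all genes. All 7 were higher in PD-1hi. In a fit of these 8 arrays alone 5 members passed, with Prdm1 (adjusted p = 0.0190) and Bhlhe40 (adjusted p = 0.0321) added to the 3, where 2.62% of all genes were called. The median difference of the 9 members between PD-1hi and PD-1int was 0.48, and that of all genes was 0.01.

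**Figure D1:**
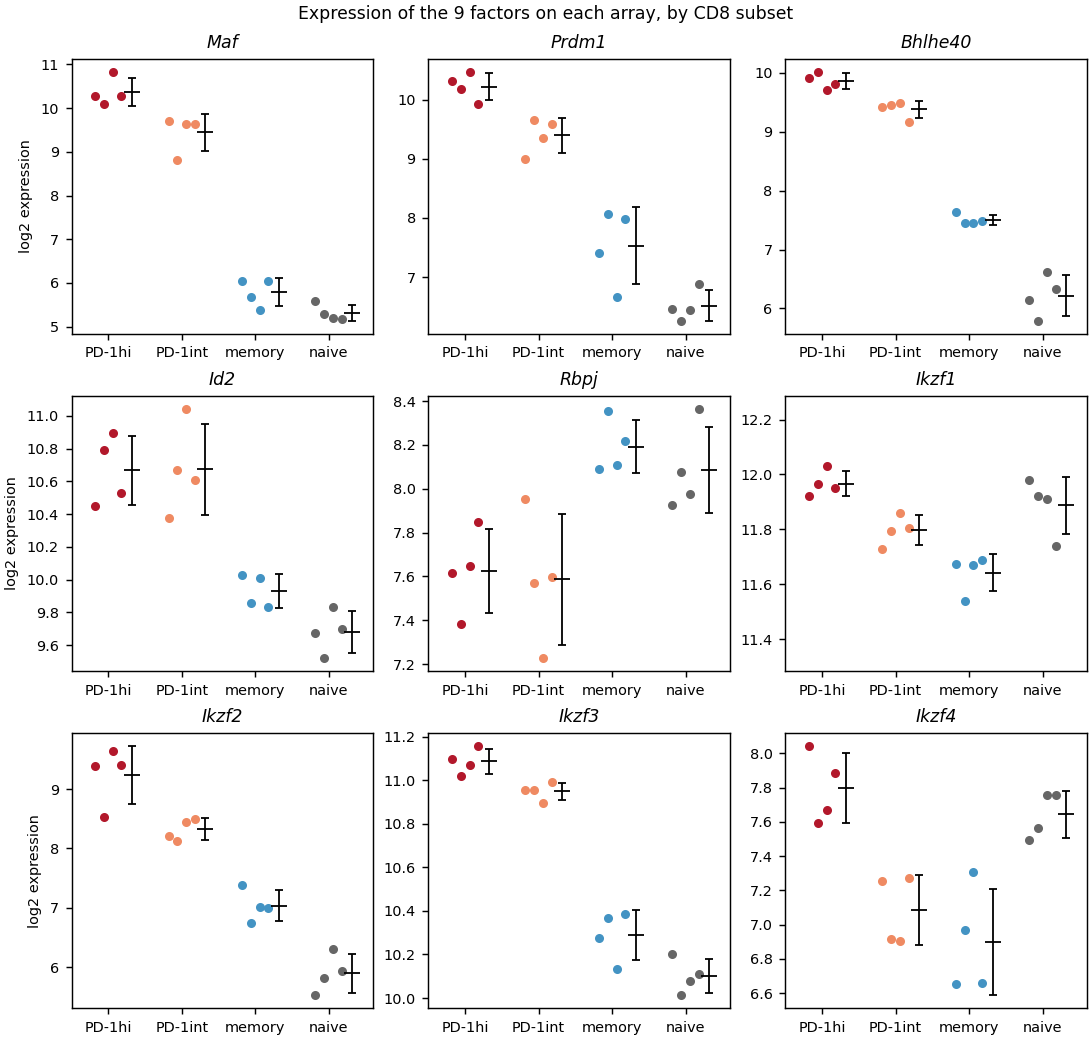
Log2 expression of each of the 9 factors on every array, 4 arrays per subset in the order of their numbers, with the mean and SD to the right of the points. The y axes differ between panels. Maf, Prdm1, Bhlhe40 and Ikzf2 have their 4 PD-1hi arrays above all 4 PD-1int arrays, and Ikzf4 lies high in PD-1hi and naive cells and low in PD-1int and memory cells.

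Maf showed the widest range of the 9, with subset means that spanned 5.06. It measured 10.28, 10.10, 10.84 and 10.27 in PD-1hi arrays 1 to 4, and 9.71, 8.81, 9.63 and 9.63 in PD-1int arrays 1 to 4. In memory arrays it measured 6.04, 5.69, 5.39 and 6.05, and in naive arrays 5.59, 5.28, 5.20 and 5.18. Every effector array lay at least 2.77 above every memory and naive array, while memory and naive arrays overlapped. Maf was 33.3-fold higher in PD-1hi than in naive cells (log2 difference 5.06 ± 0.20, SE of the limma fit, adjusted p = 1.45e-12) and 23.9-fold higher than in memory cells (4.58 ± 0.20). By size of difference this was rank 6 of 22180 genes in PD-1hi against memory. The PD-1hi arrays were all above the PD-1int arrays, by 0.93 ± 0.20 on average (1.90-fold, adjusted p = 0.0131). Memory against naive, at 0.48 ± 0.20, did not pass (adjusted p = 0.152). PD-1int array 2 was the lowest of its subset by 0.82, and without it the PD-1hi minus PD-1int difference was 0.71 ± 0.17 (adjusted p = 0.0356). A second Maf probe set gave 10.48 ± 0.19 in PD-1hi, 9.33 ± 0.37 in PD-1int, 5.48 ± 0.41 in memory and 5.38 ± 0.32 in naive cells (SD, n = 4), with the same calls in all 6 comparisons.

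Genes tied to c-MAF were read from lists of pathway genes. For each list count in PD-1hi against naive, here and below, the share over all genes was 13.4% higher and 13.7% lower. Of 8 cytokines tied to c-MAF or BHLHE40, 2 rose in PD-1hi against naive, with a list median of 0.16 against -0.01 over all genes. These were Ifng, interferon gamma, at 11.07 ± 0.22 in PD-1hi, 10.07 ± 0.46 in PD-1int, 6.78 ± 0.06 in memory and 6.19 ± 0.37 in naive cells, and Il10, interleukin 10. Il10 averaged 8.59 ± 0.47 in PD-1hi, 7.14 ± 0.74 in PD-1int, 5.39 ± 0.22 in memory and 5.32 ± 0.28 in naive cells (SD, n = 4). Like Maf, Il10 was higher in PD-1hi than in PD-1int (1.45 ± 0.28, adjusted p = 0.00678) and did not pass between memory and naive (0.07 ± 0.28, adjusted p = 0.933). Il2, interleukin 2, was lower in PD-1hi than in PD-1int (-0.77 ± 0.16, adjusted p = 0.0112), at 4.13 ± 0.17 against 4.90 ± 0.35. It averaged 4.68 in memory and 4.19 in naive cells. PD-1int was above naive (0.71 ± 0.16, adjusted p = 0.00287), while PD-1hi against naive did not pass (-0.06 ± 0.16, adjusted p = 0.857). PD-1hi was also below memory (-0.56 ± 0.16, adjusted p = 0.0169). All these Il2 means lie below the array medians of 6.39 to 6.49. Of 10 other MAF and CNC factors measured, 1 rose and 5 fell in PD-1hi against naive, with a list median of -0.29. Bach2, a repressor that restrains effector differentiation, averaged 8.04 ± 0.19 in PD-1hi, 8.66 ± 0.23 in PD-1int, 9.49 ± 0.06 in memory and 10.69 ± 0.20 in naive cells, and all 6 of its comparisons passed. Mafg, a small MAF protein, rose (0.92 ± 0.09), and Mafk, another, fell (-0.82 ± 0.08), as did Nfe2l2 (-1.02 ± 0.14), which encodes the oxidative stress factor NRF2. Mafk and Bach2 were also lower in PD-1hi than in PD-1int (-0.60 ± 0.08 and -0.62 ± 0.12).

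Prdm1 was higher in PD-1hi, PD-1int and memory cells than in naive cells. It measured 10.31, 10.18, 10.48 and 9.93 in PD-1hi arrays 1 to 4, and 9.0, 9.66, 9.35 and 9.58 in PD-1int arrays. Memory arrays gave 7.40, 8.07, 6.66 and 7.99, and naive arrays 6.46, 6.26, 6.44 and 6.88. Memory array 3 fell within the naive range, and the memory arrays spread most of any subset for this gene (SD 0.65). Prdm1 was 13.1-fold higher in PD-1hi than in naive cells (3.71 ± 0.24, adjusted p = 1.06e-09), 7.40-fold higher in PD-1int than in naive cells (2.89 ± 0.24) and 2.02-fold higher in memory than in naive cells (1.02 ± 0.24, adjusted p = 0.00806). PD-1hi and PD-1int arrays did not overlap and differed by 0.83 ± 0.24, which did not pass over all genes (adjusted p = 0.0749). This difference passed in the fit of 8 arrays given above and without memory array 3 (adjusted p = 0.0140). Of 16 limma fits that left out 1 array, only that 1 passed, with adjusted p up to 0.227 in the rest. The wide memory spread enters the shared error of the 16-array fit.

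Promoter windows from RefSeq (GRCm38.p6), from 250 bases before to 50 bases after a transcript start, were matched in the table used here for 4 of the 9 members, namely Prdm1, Id2, Rbpj and Ikzf1. The windows of Prdm1, Id2 and Rbpj are shown because Prdm1 and Id2 rose in both effector subsets and Rbpj fell. Capitals mark the letters GGGAA or their complement TTCCC, the core that Ikaros proteins recognise. The letters GGGAA also end the RBPJ core TGGGAA, so every TGGGAA match is also a GGGAA match. The windows lie at chr10:44458699-44458998 (Prdm1, minus strand), chr12:25096043-25096342 (Id2, minus strand) and chr5:53590096-53590395 (Rbpj, plus strand, the first of 2 listed starts).
Prdm1: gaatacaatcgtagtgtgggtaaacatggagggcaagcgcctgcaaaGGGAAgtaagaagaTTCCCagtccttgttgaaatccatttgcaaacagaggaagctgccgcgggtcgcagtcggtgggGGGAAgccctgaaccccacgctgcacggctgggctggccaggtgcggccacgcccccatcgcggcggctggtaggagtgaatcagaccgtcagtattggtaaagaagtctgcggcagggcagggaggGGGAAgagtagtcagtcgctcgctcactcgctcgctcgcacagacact
Id2: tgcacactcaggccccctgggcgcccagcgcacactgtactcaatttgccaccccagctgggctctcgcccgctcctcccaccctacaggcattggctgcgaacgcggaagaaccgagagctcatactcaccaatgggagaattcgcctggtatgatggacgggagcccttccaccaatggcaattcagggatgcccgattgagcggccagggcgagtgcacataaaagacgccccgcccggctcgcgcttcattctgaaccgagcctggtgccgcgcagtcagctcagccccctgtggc
Rbpj: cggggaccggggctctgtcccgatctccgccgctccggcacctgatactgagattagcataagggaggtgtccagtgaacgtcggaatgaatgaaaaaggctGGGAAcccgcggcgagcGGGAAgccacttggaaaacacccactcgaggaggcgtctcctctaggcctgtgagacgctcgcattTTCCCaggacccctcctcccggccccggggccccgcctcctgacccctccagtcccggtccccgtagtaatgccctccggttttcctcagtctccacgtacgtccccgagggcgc
On both strands GGGAA matched 4 times in the Prdm1 window, 3 times in the Rbpj window and 0 times in the Id2 window, and 62.7% of all 32851 windows held it. TGGGAA matched 1, 2 and 0 times in the same windows and was held by 25.6% of all windows. The AP-1 letters TGANTCA matched 1 time in the Prdm1 window, against 7.81% of all windows, and CACGTG, an E-box that BHLHE40 binds, matched 0 times in any of the 3, against 7.15%. These matches describe the letters in these windows only.

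Of 8 measured factors set against or beside Blimp-1, 3 rose and 3 fell in PD-1hi against naive. Batf (1.77 ± 0.09) and Irf4 (1.59 ± 0.18), which act together downstream of the T-cell receptor, rose, as did Xbp1 (0.71 ± 0.10), a factor of the secretory pathway. Myc (-1.56 ± 0.19), a growth regulator, fell. Bcl6, the repressor that opposes Blimp-1, averaged 6.33 ± 0.18 in PD-1hi, 7.21 ± 0.24 in PD-1int, 6.61 ± 0.11 in memory and 6.86 ± 0.19 in naive cells. It was lower in PD-1hi than in PD-1int (-0.88 ± 0.12, adjusted p = 0.000336), while Batf was higher (0.46 ± 0.09, adjusted p = 0.00926). Irf4 was lower in memory than in naive cells (-0.79 ± 0.18), unlike Prdm1.

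Bhlhe40 separated all subsets except the 2 effector subsets from each other in the fit of all arrays. It measured 9.92, 10.02, 9.71 and 9.81 in PD-1hi arrays, and 9.42, 9.45, 9.50 and 9.17 in PD-1int arrays. Memory arrays gave 7.63, 7.44, 7.45 and 7.49, and naive arrays 6.14, 5.78, 6.61 and 6.33. None of the 4 subsets overlapped with another, and they stood in the order PD-1hi, PD-1int, memory, naive. The gene was 12.5-fold higher in PD-1hi than in naive cells (3.65 ± 0.13, adjusted p = 5.83e-13) and 2.44-fold higher in memory than in naive cells (1.29 ± 0.13, adjusted p = 2.19e-06). Between PD-1hi and PD-1int the difference was 0.48 ± 0.13 (adjusted p = 0.0605). It passed without the 40% dimmest genes (adjusted p = 0.0406), without naive array 2 (0.0175) or naive array 3 (0.0250), and in the 8-array fit. Of 16 limma fits that left out 1 array, only those 2 passed, with adjusted p up to 0.177 in the rest.

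Among 16 measured relatives of Bhlhe40 and genes of the circadian clock, 4 rose and 5 fell in PD-1hi against naive, with a list median of -0.13. Cry1 (-1.05 ± 0.11), Nr1d1 (-0.87 ± 0.12) and Nr1d2 (-0.88 ± 0.17), repressors of the clock, fell, and Nfil3 (1.02 ± 0.15), a leucine zipper repressor, rose. Bhlhe41, the closest relative of Bhlhe40, was 5.45 ± 0.21 in PD-1hi and 5.13 ± 0.11 in naive cells (0.32 ± 0.09, adjusted p = 0.0133). None of the 16 passed between PD-1hi and PD-1int in the limma fit of all arrays or in the fit of those 8 arrays alone. Over all genes 3.31% and 2.62% were called in these fits, so this is not read as a result about the list. Of the 16, 4 had an unadjusted limma p under 0.05 in the fit of all arrays, for which the share over all genes was not counted.

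Id2 was high in both effector subsets, with no difference between them that passed. It measured 10.45, 10.79, 10.90 and 10.53 in PD-1hi arrays, and 10.37, 10.67, 11.04 and 10.61 in PD-1int arrays. Memory arrays gave 10.03, 9.85, 10.01 and 9.83, and naive arrays 9.68, 9.52, 9.83 and 9.70. Every effector array lay above every memory and naive array. Id2 was 1.98-fold higher in PD-1hi than in naive cells (0.99 ± 0.13, adjusted p = 6.54e-06) and 1.99-fold higher in PD-1int than in naive cells (0.99 ± 0.13, adjusted p = 8.93e-06). The PD-1hi minus PD-1int difference was -0.01, with a 95% interval of -0.27 to 0.26. Memory against naive gave 0.25 ± 0.13 (adjusted p = 0.267).

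Of 6 measured E proteins and other ID proteins, 3 fell and the other 3 did not pass in PD-1hi against naive, with a list median of -0.22. Id3, which is known to be kept by memory precursor cells, averaged 5.88 ± 0.14 in PD-1hi, 6.43 ± 0.20 in PD-1int, 7.23 ± 0.31 in memory and 6.79 ± 0.21 in naive cells. It fell in PD-1hi against naive (-0.91 ± 0.14, adjusted p = 6.50e-05), against memory (-1.35 ± 0.14) and against PD-1int (-0.55 ± 0.14, adjusted p = 0.0409), where Id2 did not pass. Tcf12 (-0.58 ± 0.09) and Tcf3 (-0.25 ± 0.09, adjusted p = 0.0471), which encode E proteins, were the others that fell against naive.

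Rbpj was the only one of the 9 that was lower in both effector subsets than in both memory and naive cells. It measured 7.62, 7.38, 7.65 and 7.85 in PD-1hi arrays, and 7.95, 7.57, 7.23 and 7.60 in PD-1int arrays. Memory arrays gave 8.09, 8.35, 8.11 and 8.22, and naive arrays 7.93, 8.08, 7.98 and 8.37. All PD-1hi arrays lay below all memory and naive arrays, while PD-1int array 1 reached into the naive range. The fall was 0.46 on the log2 scale in PD-1hi against naive, with an SE of 0.14 (adjusted p = 0.0152), a call lost without PD-1hi array 2 (adjusted p = 0.0588) or naive array 4 (0.0614). PD-1int against naive gave -0.50 ± 0.14 (adjusted p = 0.0112). Against memory, PD-1hi differed by -0.57 ± 0.14 (adjusted p = 0.00434) and PD-1int by -0.61 ± 0.14 (adjusted p = 0.00399). PD-1hi minus PD-1int was 0.04 (95% interval -0.25 to 0.32), and memory minus naive 0.11 (-0.18 to 0.39). A second Rbpj probe set read 6.09 ± 0.19 in PD-1hi, 6.34 ± 0.13 in PD-1int, 6.71 ± 0.10 in memory and 6.84 ± 0.10 in naive cells (SD, n = 4). It passed in the same 4 comparisons and had the opposite sign in the other 2, PD-1hi against PD-1int (-0.25 ± 0.10, adjusted p = 0.334) and memory against naive (-0.13 ± 0.10, adjusted p = 0.580).

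Around RBPJ, 4 of 28 measured genes of the Notch pathway rose and 6 fell in PD-1hi against naive, with a list median of -0.04. Over all genes 13.4% were higher and 13.7% lower, so these counts are not read as a result about the pathway. Maml3, a coactivator that joins RBPJ and Notch, had the largest change. It averaged 6.26 ± 0.09 in PD-1hi, 6.21 ± 0.18 in PD-1int, 7.12 ± 0.11 in memory and 8.88 ± 0.25 in naive cells, 6.13-fold lower in PD-1hi than in naive cells (-2.61 ± 0.11, adjusted p = 6.27e-12). Its relative Maml2 fell as well (-0.75 ± 0.09). Nrarp, a feedback inhibitor that Notch induces, rose to 7.46 ± 0.05 in PD-1hi, 7.50 ± 0.15 in PD-1int and 7.10 ± 0.12 in memory cells, against 6.58 ± 0.32 in naive cells. Adam17, a sheddase that can cleave Notch, rose in PD-1hi against naive (0.53 ± 0.10). Notch2, a receptor, and Psen2, a catalytic subunit of gamma-secretase, were lower in PD-1hi than in PD-1int (-0.52 ± 0.10 and -0.39 ± 0.08).

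**Figure D2:**
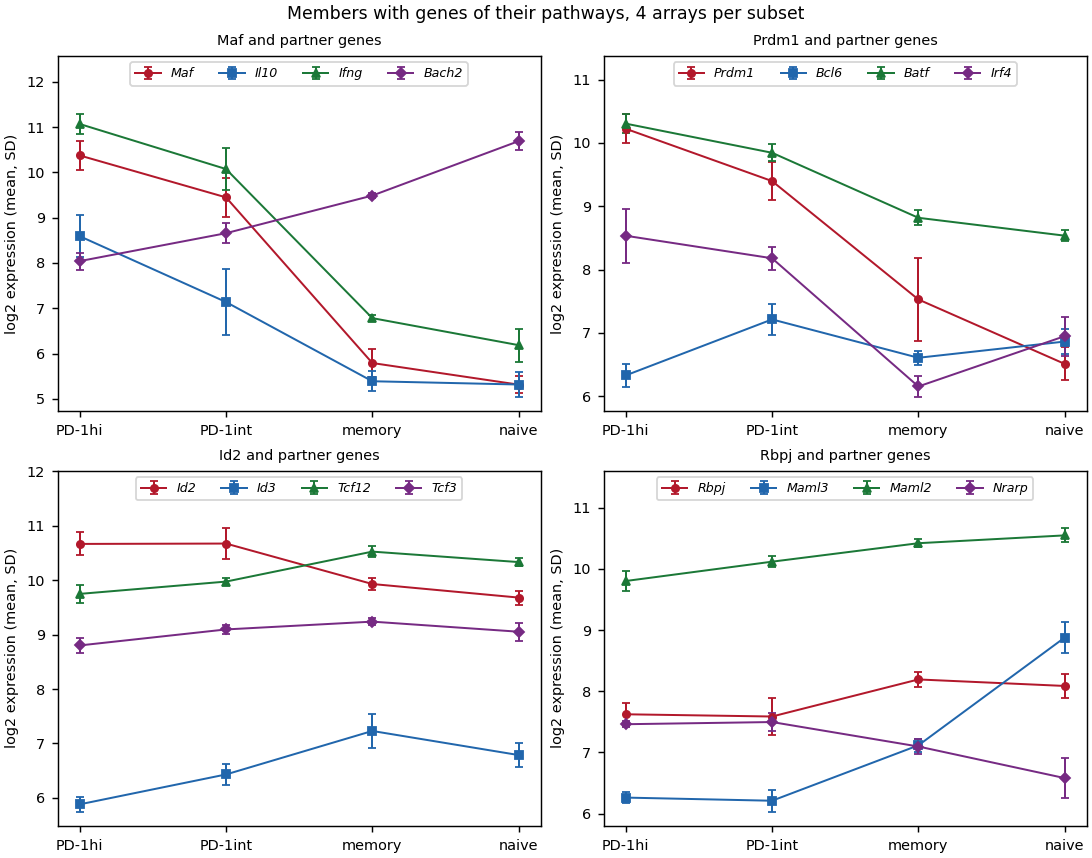
Mean log2 expression with SD (n = 4 arrays per subset) of Maf, Prdm1, Id2 and Rbpj, each with 3 genes of its pathway. Lines join the values of a gene and do not stand for time. Il10 and Ifng are highest in PD-1hi like Maf, and Bach2 and Id3 are lowest there. Id2 is high in both effector subsets, and Maml3 is lower in both effector subsets than in memory and naive cells.

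Within the Ikaros family, subset means spanned most for Ikzf2 and least for Ikzf1. Ikzf2, which encodes Helios, measured 9.39, 8.53, 9.65 and 9.40 in PD-1hi arrays, and 8.21, 8.12, 8.45 and 8.50 in PD-1int arrays. Memory arrays gave 7.38, 6.75, 7.02 and 6.99, and naive arrays 5.52, 5.82, 6.31 and 5.94. The 4 subsets did not overlap, although PD-1hi array 2 exceeded the highest PD-1int array by only 0.025. Ikzf2 was 10.1-fold higher in PD-1hi than in naive cells (3.34 ± 0.20, adjusted p = 5.14e-10) and 2.20-fold higher in memory than in naive cells (1.14 ± 0.20, adjusted p = 0.000874). PD-1hi exceeded PD-1int by 0.92 ± 0.20 (adjusted p = 0.0166). This last call was lost in 5 of 16 fits that left out 1 array, without PD-1hi array 1, 3 or 4 or PD-1int array 1 or 2, with adjusted p between 0.0517 and 0.0583.

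Ikzf3, which encodes Aiolos, was raised in both effector subsets. It measured 11.10, 11.02, 11.07 and 11.16 in PD-1hi arrays, and 10.96, 10.96, 10.90 and 10.99 in PD-1int arrays. Memory arrays gave 10.27, 10.37, 10.13 and 10.39, and naive arrays 10.20, 10.01, 10.08 and 10.11. Only memory and naive arrays overlapped. Ikzf3 was 1.98-fold higher in PD-1hi than in naive cells (0.99 ± 0.07, adjusted p = 5.42e-09) and 1.80-fold higher in PD-1int than in naive cells (0.85 ± 0.07). PD-1hi minus PD-1int was 0.14 ± 0.07 (adjusted p = 0.428).

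Ikzf4, which encodes Eos, was high in PD-1hi and naive cells and low in PD-1int and memory cells. It measured 8.05, 7.60, 7.67 and 7.88 in PD-1hi arrays, and 7.25, 6.91, 6.90 and 7.27 in PD-1int arrays. Memory arrays gave 6.65, 6.97, 7.31 and 6.66, and naive arrays 7.50, 7.56, 7.76 and 7.76. PD-1hi overlapped with naive and PD-1int with memory, but all PD-1hi and naive arrays lay above all PD-1int and memory arrays. Ikzf4 was 1.64-fold higher in PD-1hi than in PD-1int (0.71 ± 0.14, adjusted p = 0.00833) and 1.87-fold higher than in memory (0.90 ± 0.14, adjusted p = 0.000101). It was lower in PD-1int than in naive cells (-0.56 ± 0.14, adjusted p = 0.00707) and lower in memory than in naive cells (-0.75 ± 0.14, adjusted p = 0.00148). PD-1hi minus naive was 0.15, with a 95% interval of -0.15 to 0.46. Between PD-1hi and PD-1int, Ikzf4 was 1 of 303 higher genes among 22180.

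Ikzf1, which encodes Ikaros, had subset means that spanned 0.32, the narrowest range of the family. It measured 11.92, 11.97, 12.03 and 11.95 in PD-1hi arrays, and 11.73, 11.79, 11.86 and 11.81 in PD-1int arrays. Memory arrays gave 11.67, 11.54, 11.67 and 11.69, and naive arrays 11.98, 11.92, 11.91 and 11.74. It was higher in PD-1hi than in memory (0.32 ± 0.07, adjusted p = 0.00191) and lower in memory than in naive cells (-0.24 ± 0.07, adjusted p = 0.0279). The second of these calls was lost in 5 of 16 fits that left out 1 array, with adjusted p up to 0.0972 without memory array 2, the lowest of its subset. PD-1hi minus naive was 0.08 (95% interval -0.07 to 0.23). Whether family members differed from each other in how they changed was not tested.

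**Figure D3:**
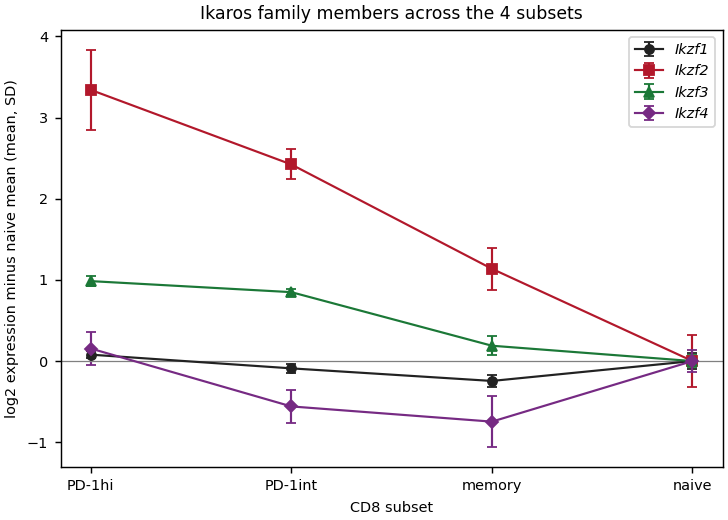
Mean log2 expression of Ikzf1, Ikzf2, Ikzf3 and Ikzf4 minus the naive mean of each gene, with the SD of the 4 arrays of each subset. Ikzf2 is 3.34 above naive in PD-1hi, Ikzf3 0.99, and Ikzf4 dips below naive in PD-1int and memory cells only.

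Of 18 genes listed as the remaining family member Ikzf5 and partner complexes of the family, 5 rose and 4 fell in PD-1hi against naive, with a list median of 0.02. Ikzf5 did not pass (-0.13 ± 0.10, adjusted p = 0.417). Hdac1, a histone deacetylase of the NuRD complex, rose (0.87 ± 0.08), as did its partner Mta2 (0.41 ± 0.08). Chd3, an ATPase of the same complex, fell (-0.88 ± 0.09), and so did the subunit Gatad2b (-0.42 ± 0.07). Chd3 was also lower in PD-1hi than in PD-1int (-0.49 ± 0.09, adjusted p = 0.00360). It was the 1 gene of this list that passed there, where 3.31% of all genes were called.

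**Figure D4:**
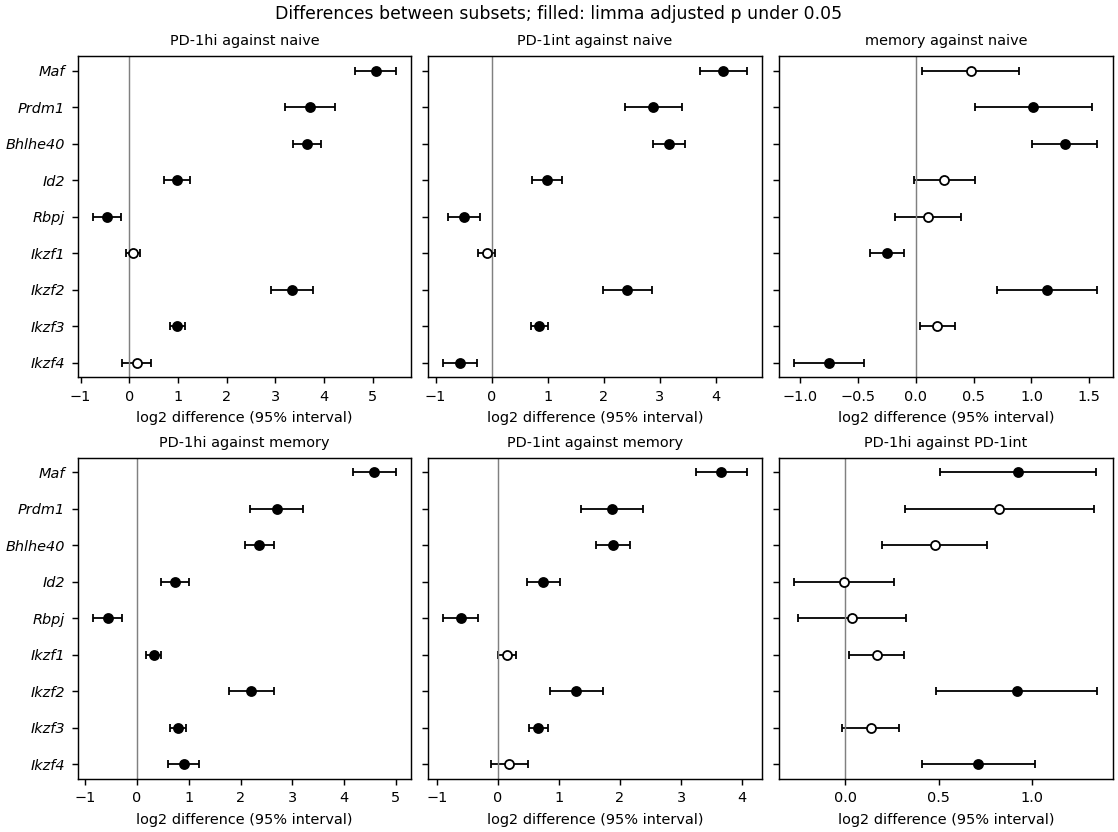
Log2 difference of each member in each of the 6 comparisons, first-named subset minus second, with its 95% interval from the limma fit. Filled points have an adjusted p under 0.05 over all genes. The x axes differ between panels. All 9 points are filled in PD-1hi against memory, and 3 in PD-1hi against PD-1int.

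The members were set beside genes with the most similar pattern, taken by the highest Pearson r over the 16 arrays among 1532 named genes whose subset means span at least 1. The 16 points share their subsets, so these r describe the subset pattern. Entpd1, the ectoenzyme CD39, was closest to Maf (r = 0.994), with Car5b, a mitochondrial carbonic anhydrase (0.989), and Acadl, an acyl-CoA dehydrogenase (0.987). Prdm1 was closest to Rgs1, a regulator of G-protein signalling (0.979), Hip1 (0.978) and the replication protein Rpa2 (0.978). Bhlhe40 was closest to the inhibitory receptor gene Tigit (0.990), Slc25a24, a mitochondrial carrier (0.988), and Rpa2 (0.987). Ikzf2 was closest to Cdkn2c, an inhibitor of cyclin-dependent kinases (0.979), Ide, the insulin-degrading enzyme (0.978), and Samsn1 (0.977). The other 5 members span less than 1 and were not searched. Among the members, r with Maf was 0.98 for Ikzf3, 0.95 for Prdm1 and Bhlhe40, 0.94 for Ikzf2 and 0.91 for Id2, against 0.22 for Ikzf4 and -0.78 for Rbpj.

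Several members are expressed by cells other than CD8 T cells, so marker lists were read on the same arrays. The counts below stand beside 13.4% of all genes higher and 13.7% lower in PD-1hi against naive. In sorted populations, more cells of a type and more RNA per cell cannot be told apart. Of 10 CD4 and regulatory T-cell markers, which bear on Ikzf2 and Ikzf4, 3 rose in PD-1hi against naive: Ctla4 (2.86 ± 0.13), Izumo1r (0.64 ± 0.11) and Zbtb7b (0.28 ± 0.09). Cd4 averaged 6.05 ± 0.15 in PD-1hi and 5.95 ± 0.08 in naive cells, and did not pass (adjusted p = 0.605). Foxp3 averaged 6.17 ± 0.11 in PD-1hi and 6.39 ± 0.12 in naive cells (adjusted p = 0.120). The list mean lay at 7.10 to 7.26 in PD-1hi, 6.82 to 7.05 in PD-1int, 6.58 to 6.68 in memory and 6.70 to 6.83 in naive arrays. Izumo1r, like Ikzf4, was higher in PD-1hi than in PD-1int (0.94 ± 0.11) and lower in memory than in naive cells (-1.40 ± 0.11). Both genes were also higher in PD-1hi than in memory cells (Izumo1r 2.04 ± 0.11). Unlike Ikzf4, Izumo1r was higher in PD-1int than in memory cells (1.11 ± 0.11), and its rise over naive cells in PD-1hi passed. Between PD-1int and naive cells Izumo1r did not pass (-0.29 ± 0.11, adjusted p = 0.0781), whereas Ikzf4 was lower in PD-1int.

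Of 14 B-cell and CLL-cell markers, which bear on Ikzf3 and Prdm1, 1 rose and 2 fell in PD-1hi against naive. Cd22 rose (0.84 ± 0.12), while Ighm (-3.68 ± 0.26) and Cd79b (-0.97 ± 0.13) fell. Cd79a averaged 6.16 ± 0.30 in PD-1hi and 6.32 ± 0.34 in naive cells, and Ms4a1 5.40 ± 0.18 in PD-1hi and 5.35 ± 0.26 in naive cells. The list mean lay at 6.11 to 6.45 in PD-1hi, 6.21 to 6.52 in PD-1int, 6.48 to 6.86 in memory and 6.34 to 6.66 in naive arrays. Array 4 had the highest B-cell list mean in each of the 4 subsets. Of 14 myeloid markers, which bear on Maf and Bhlhe40, Cd68 (3.05 ± 0.17), Itgam (1.03 ± 0.20) and Cst3 (0.57 ± 0.07) rose, and Csf1r (0.25 ± 0.14, adjusted p = 0.212) and Lyz2 (0.50 ± 0.19, adjusted p = 0.0574) did not pass. Under quantile normalization or median centring 4 myeloid markers rose and 1 fell, and in the 8-array fit 5 rose. Their list mean lay at 6.61 to 6.72 in PD-1hi, 6.64 to 6.76 in PD-1int, 6.33 to 6.38 in memory and 6.12 to 6.29 in naive arrays. Of 7 natural killer and innate-like markers, Eomes (3.26 ± 0.09) and Cd160 (1.21 ± 0.16) rose, and Ncr1 did not pass (0.03 ± 0.09, adjusted p = 0.877). Klrb1c (0.11 ± 0.19, adjusted p = 0.763), Kit, Zbtb16 and Fcgr3 did not pass either. That list mean lay at 7.09 to 7.43 in PD-1hi, 7.16 to 7.31 in PD-1int, 7.16 to 7.36 in memory and 6.54 to 6.67 in naive arrays. The part of such cells in the members' differences was not tested.

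Genes of mitosis also differed between subsets. All 19 measured mitosis genes rose in PD-1hi against naive, where 13.4% of all genes were higher. In PD-1hi against PD-1int 3 rose, where 1.37% of all genes were higher. The count there was 7 without the 40% dimmest genes, 6 with a replicate block, and 5 to 8 without memory array 1, 2 or 3. In the fit of those 8 arrays alone the count was 16, where 2.62% of all genes were called in either direction. Their mean lay at 9.78 to 10.18 in PD-1hi, 8.88 to 9.39 in PD-1int, 7.46 to 8.67 in memory and 6.27 to 6.54 in naive arrays. In memory against naive, 18 of these 19 genes rose, where 6.7% of all genes were higher. Within memory the mean was 8.67, 7.49, 7.46 and 8.47 in arrays 1 to 4, so arrays 1 and 4 had the most mitosis signal. Among memory arrays, Bhlhe40, Id2 and Ikzf2 were highest in array 1 and Maf, Ikzf1 and Ikzf3 in array 4, while Prdm1 and Rbpj were highest in array 2 and Ikzf4 in array 3. Maf, Prdm1 and Ikzf3 were lowest in array 3, and Bhlhe40, Ikzf1 and Ikzf2 in array 2. Rbpj and Ikzf4 were lowest in array 1, and Id2 in array 4. The mitosis means of arrays 2 and 3 differed little (7.49 and 7.46). The part of cell division in the members' differences was not tested.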

How the data were processed

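RNA from the sorted cells was labelled with the WT Pico reagents and read on Affymetrix Mouse Gene 2.0 ST arrays, per the labels' protocols. The deposited values are log2 expression per probe set, made by the authors with Affymetrix Power Tools, per the submitters' processing notes. Not given in the sources used here are its version and how probes were summarised, and the log base was read from the range of 2.35 to 14.13. Arrays of a subset correlated at 0.994 or less and 0 array pairs were identical, so no array is a copy of another. Technical repeats of 1 RNA cannot be told from these values.

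Of 41345 probe sets, 23521 carry 1 gene symbol in the platform annotation, 1814 several and 16010 none. Only the first were used. Maf and Rbpj have 2 such probe sets and the other members 1. Symbols were checked against RefSeq by Entrez identifier (21994 of 22180 genes matched, 0 symbols differed).

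limma (version 3.58.1, R 4.3.3) fitted a mean per subset over all 16 arrays with no block, and eBayes moderated the errors for all 6 pairs of subsets, with Benjamini-Hochberg adjustment over all genes and a threshold of 0.05. Log2 differences had a median standard error of 0.104, and 4 arrays per subset limit the precision. On simulated data for PD-1hi against naive (22180 genes), the fit recovered 58 of 100 genes with a true log2 change of 0.5 and 96 of 100 with 1, with 10 false calls among 21980 unchanged genes. Only those genes were changed, with independent normal noise, whereas 27.1% of genes were called in the data. The recovery in the real fit may therefore differ.

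The members and pathway lists were chosen with earlier results of these data known, so their counts are descriptions. From each list the text names up to 4 genes with the smallest adjusted p in PD-1hi against naive and up to 2 among those called in PD-1hi against PD-1int. Other named genes, among them defining markers of other cells, were picked with their values in view. For each member whose subset means span at least 1, the 3 genes with the highest Pearson r were named, leaving aside antigen receptor segments, small RNAs and predicted loci. Listed genes with no single-symbol probe set were not analysed here.

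The labels do not say what an array's number marks, so it entered as an alternative block only (the closing section gives the check). Alternatives were a replicate block, a fit of the 8 arrays compared, robust eBayes with a trend, median centring, quantile normalization, averaging the probe sets of a gene, dropping the 40% dimmest genes, and leaving out each array. Promoter windows are those of RefSeq on GRCm38.p6.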

Additional observations from a re-analysis of the deposited data

Results flagged for a closer look

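Each member was checked in each subset for an array that stood apart from the other 3, by the gap to the nearest array over the whole range (Dixon's ratio at its 95% critical value). Of 36 such groups 2 passed, and chance flags about 1 in 20. Maf in PD-1int array 2 was 8.81, against 9.63 to 9.71 in the other 3 arrays. Ikzf1 in memory array 2 was 11.54, against 11.67 to 11.69 in the other 3. Without that array Ikzf1 in memory against naive was -0.21 (limma adjusted p = 0.0972). Both arrays carry the number 2, and the cause was not tested.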

How the results depend on the processing

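Over 23 alternative fits, 45 of the 54 member differences (9 members in 6 comparisons) kept their direction and their side of the threshold. The number of members that passed in PD-1hi against PD-1int was 3, and 5 in the fit of those 8 arrays alone, a fit with fewer samples. Leaving out 1 array at a time, 6 to 7 members passed in PD-1hi against naive, 8 in PD-1int against naive, 4 to 6 in memory against naive, 2 to 4 in PD-1hi against PD-1int, 9 in PD-1hi against memory and 7 in PD-1int against memory. Differences that changed sign had not passed under any setting. Id2 in PD-1hi against PD-1int was 0.0026 with quantile normalization and -0.11 to 0.12 when 1 array was left out. Rbpj in the same comparison was -0.10 with the mean of its probe sets and -0.084 to 0.16 when 1 array was left out, and Rbpj in memory against naive was -0.012 with the mean of its probe sets. Ikzf3 in memory against naive passed without memory array 3 (limma adjusted p = 0.0435), and the call of Ikzf1 there was lost in the 8-array fit (0.0887). With the replicate number as a block, 7, 8, 5, 3, 9 and 7 members passed in PD-1hi, PD-1int and memory against naive, PD-1hi against PD-1int, PD-1hi against memory and PD-1int against memory, as without it. The deviations of arrays with the same number correlated at -0.05 to 0.15 over 24 pairs (mean 0.034), 2 of them above 0.1. For pairs with different numbers the range was -0.17 to 0.20 (mean -0.011), so the numbers were not taken to pair the arrays. Against that, the titles repeat the same numbers in every subset, and 10 of 16 arrays correlated best with one of their own number. Array 4 also had the highest B-cell marker mean in each subset (6.45 in PD-1hi, 6.52 in PD-1int, 6.86 in memory and 6.66 in naive cells). These are a hint of sharing between arrays of a number, which the labels do not explain. For the pathway and marker lists, 1567 of 1656 counts stayed within 1.5 times, and 23 of 72 list results moved beyond it under at least 1 alternative. All 9 members were kept by the filter on dim genes. No detection calls or background levels were used, so the depth of signal over background is unknown.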

Other observations

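Among the clock and Notch genes, Arntl and Notch1 were lower in memory cells than in each other subset. Arntl, which encodes the clock activator BMAL1, averaged 9.58 ± 0.33 in PD-1hi, 9.59 ± 0.29 in PD-1int, 8.92 ± 0.07 in memory and 9.75 ± 0.26 in naive cells (SD, n = 4). It was lower in memory than in naive cells (-0.83 ± 0.16, limma adjusted p = 0.00165), and higher in PD-1hi (0.66 ± 0.16, adjusted p = 0.00507) and PD-1int (0.67 ± 0.16, adjusted p = 0.00657) than in memory. Notch1 averaged 10.55 ± 0.20 in PD-1hi, 10.39 ± 0.08 in PD-1int, 9.97 ± 0.08 in memory and 10.29 ± 0.13 in naive cells, and was lower in memory than in naive cells (-0.32 ± 0.10, adjusted p = 0.0386) and higher in PD-1hi (0.58 ± 0.10, adjusted p = 0.000162) and PD-1int (0.42 ± 0.10, adjusted p = 0.00448) than in memory. Psen2 averaged 8.02 ± 0.09 in PD-1hi, 8.41 ± 0.11 in PD-1int, 8.54 ± 0.11 in memory and 7.90 ± 0.09 in naive cells, and its difference between PD-1int and memory did not pass (-0.14 ± 0.08, adjusted p = 0.334). These genes were chosen after their values were seen.

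Ighm, the immunoglobulin heavy chain constant gene, averaged 8.95 ± 0.64 in PD-1hi, 9.65 ± 0.55 in PD-1int, 12.31 ± 0.06 in memory and 12.63 ± 0.05 in naive cells. Of the other B-cell markers, Cd79b also fell in PD-1hi against naive (-0.97 ± 0.13, adjusted p = 9.23e-06), Cd22 rose (0.84 ± 0.12, adjusted p = 2.38e-05), and Cd79a and Ms4a1 did not pass. Cd22 averaged 7.13 ± 0.22 in PD-1hi, 8.03 ± 0.18 in PD-1int, 9.50 ± 0.10 in memory and 6.28 ± 0.21 in naive cells.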
